A study of Mus musculus with 6 samples.

Results

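The genes described here are 10 heat shock chaperones that work outside the endoplasmic reticulum (ER), Hspa1a, Hspa1b, Hspa8, Hsp90aa1, Hsp90ab1, Hsph1, Dnaja1, Dnajb1, Hspd1 and Hspe1. They were chosen by name, as targets of heat shock factor 1 (HSF1), and all 10 have a row among the 23284 genes of the count files. Liver RNA was sequenced from C57BL/6 mice, 8 weeks old, that were fasted overnight and then given vehicle or FGF19 for 6 h while fasting went on. The FGF19 dose was 1 mg/kg, FGF19 being the human counterpart of the mouse gut hormone FGF15. Each group had 3 libraries, 1 from each mouse, called Vehicle 1 to 3 and FGF19 1 to 3 below. The study asked which liver genes respond to FGF19, with lipogenic genes as its main interest. The comparison here is of the chaperone mRNAs in the FGF19 and Vehicle livers.

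Chaperones bind proteins that are unfolded or only partly folded and help them reach or regain their shape. In the cytosol, proteins of the HSP70 family bind short exposed stretches with the help of J-domain partners and nucleotide exchange factors, and HSP90 proteins act later on clients such as kinases and steroid receptors. In mitochondria, HSP60 and its lid HSP10 enclose imported proteins in a folding chamber. HSF1 is held inactive in unstressed cells and, when unfolded proteins accumulate, binds inverted GAA units in the promoters of many of these genes. Unfolded proteins in the ER instead act through a separate set of sensors, which raise ER chaperones such as Hspa5.

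Of the 10 chaperones 9 were tested, and Hspa8 alone passed at an adjusted p under 0.05, lower after FGF19 by 32.4%. None was higher at the same threshold, where 2.84% of all genes tested were lower and 4.56% higher. With FGF19 1 or FGF19 2 left out, Hspa8 did not pass. Hsp90ab1 was lower in each FGF19 liver than in each Vehicle liver, but by 13.9%, and it did not pass. The stress-inducible Hspa1a and Hspa1b were at very low levels in both groups, and the mitochondrial Hspd1 and Hspe1 differed by under 4%. In contrast, 5 of 6 ER relatives of these chaperones rose, by 0.89 to 1.75 on the log2 scale, against 4.56% of all genes tested.

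The total count per library was between 18994654 and 22920056, and each of the 3 FGF19 libraries was deeper than each Vehicle library. Reads carry no molecular identifiers, so the limits given from counts cover counting error only. The albumin gene Alb, which marks hepatocytes, took 6.53% to 7.05% of the counts. Levels are given in CPM, counts over the library total after edgeR's TMM scaling, whose factors were between 0.964 and 1.03. Of the 23284 genes, 12559 passed edgeR's filter on low counts. The quasi-likelihood test of edgeR was run on all of these, and p-values were adjusted over them by the Benjamini-Hochberg method. Of the genes tested, 4.56% were higher and 2.84% lower at an adjusted p under 0.05, while 6.2% were higher and 4.98% lower at an unadjusted p under 0.01, the study's threshold. The groups did not overlap in 14.5% of the genes tested in the higher direction and in 13.8% in the lower direction. Hspa1a did not pass the filter, so 9 of the 10 chaperones were tested. In a piece of whole liver, fewer cells of a type and less RNA per cell cannot be told apart.

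Inverted GAA units lie close to the start of several of these genes, and the stretches that hold them are shown to place the genes before their values. In the mm9 build of the mouse genome, Hspd1 (chr1:55134678-55144776, minus strand) and Hspe1 (chr1:55144992-55148161, plus strand) lie head to head. The 215 bases between their starts, at chr1:55144777-55144991, are given on the plus strand, in the reading direction of Hspe1. Capitals mark inverted GAA units, that is GAANNTTC or TTCNNGAA, where N is any base.
Hspe1 and Hspd1: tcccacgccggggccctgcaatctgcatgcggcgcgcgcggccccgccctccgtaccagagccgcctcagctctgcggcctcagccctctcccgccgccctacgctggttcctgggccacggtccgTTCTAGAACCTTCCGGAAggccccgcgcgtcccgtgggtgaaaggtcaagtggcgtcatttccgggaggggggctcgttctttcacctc

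The capitals run from base -89 to base -72 before the start of Hspe1, which is -144 to -127 for Hspd1, so that both genes share 1 block of 4 alternating units. The starts of Hspa1a (chr17:35106304-35109101) and Hspa1b (chr17:35093374-35096183), both on the minus strand, follow nearly the same sequence. Their windows from 250 bases before to 50 after the start were identical at 296 of 300 bases, and the stretch shown for each, from base -131 to -72, was identical throughout. The stretches lie at chr17:35109173-35109232 and chr17:35096255-35096314.
Hspa1a: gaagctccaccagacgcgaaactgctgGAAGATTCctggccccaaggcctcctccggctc
Hspa1b: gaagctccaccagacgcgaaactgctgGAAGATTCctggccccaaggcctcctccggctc

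For Hsph1 (chr5:150419420-150438890, minus strand), the stretch from -60 to 30 at chr5:150438861-150438950 held 2 separate blocks. The block after the start had 3 alternating units. For Dnaja1 (chr4:40669501-40684184, plus strand), the stretch from -151 to -92 at chr4:40669350-40669409 held 1 pair of units.
Hsph1: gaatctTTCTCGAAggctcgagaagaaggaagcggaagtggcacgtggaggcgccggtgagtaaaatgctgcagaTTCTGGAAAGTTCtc
Dnaja1: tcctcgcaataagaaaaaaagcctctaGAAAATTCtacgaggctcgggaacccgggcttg

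These sequences come from RefSeq promoter windows of GRCm38.p6, and their mm9 positions from an exact match to the mm9 genome. Such windows were at hand for 7 of the 10 genes, and not for Hspa8, Hsp90aa1 and Hsp90ab1. A pair of inverted units was found in 6 of the 7 genes, against 17% of the 27025 genes with a window. A run of 3 alternating units with 2 bases between each was found in 3 of them (Hspd1, Hspe1 and Hsph1), against 0.662% of those genes. These counts are not of separate sequences, since Hspd1 and Hspe1 share a block and the windows of Hspa1a and Hspa1b are nearly identical. The genes were also chosen as HSF1 targets, so the shares do not test for an excess of such letters. Both strands were covered, since either pair reads the same on each strand, and a run of 3 contains 2 overlapping pairs. Dnajb1 (chr8:86132074-86135802, plus strand) had no such letters in its windows, which says only that they are not there. A match is a description of letters and not of binding, which was not measured.

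Levels of different genes were compared in TPM, a unit that also divides by length, computed here from the counts and the exon length in the files. In the Vehicle livers Hsp90ab1 was at 735 ± 36.8 TPM (SD, n = 3), Hspa8 at 688 ± 89.5, Hspd1 at 329 ± 34.1 and Hspe1 at 123 ± 6.97. The first pair overlapped between libraries, while Hspd1 and Hspe1 were each below the gene before them in all 3 libraries. Hsp90aa1 followed at 45.2 ± 12.9 TPM, then Dnaja1 at 28.2 ± 7.41, Hsph1 at 20.6 ± 6.96 and Dnajb1 at 16.0 ± 3.95. Neighbours among the last 3 overlapped. At the bottom, Hspa1b was at 2.57 ± 1.27 TPM and Hspa1a at 0.174 ± 0.0957. The order of the 10 means was the same in the FGF19 livers, where Hsp90ab1 was at 635 ± 56.9 TPM and Hspa8 at 465 ± 10.8, and there these did not overlap.

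**Figure D1:**
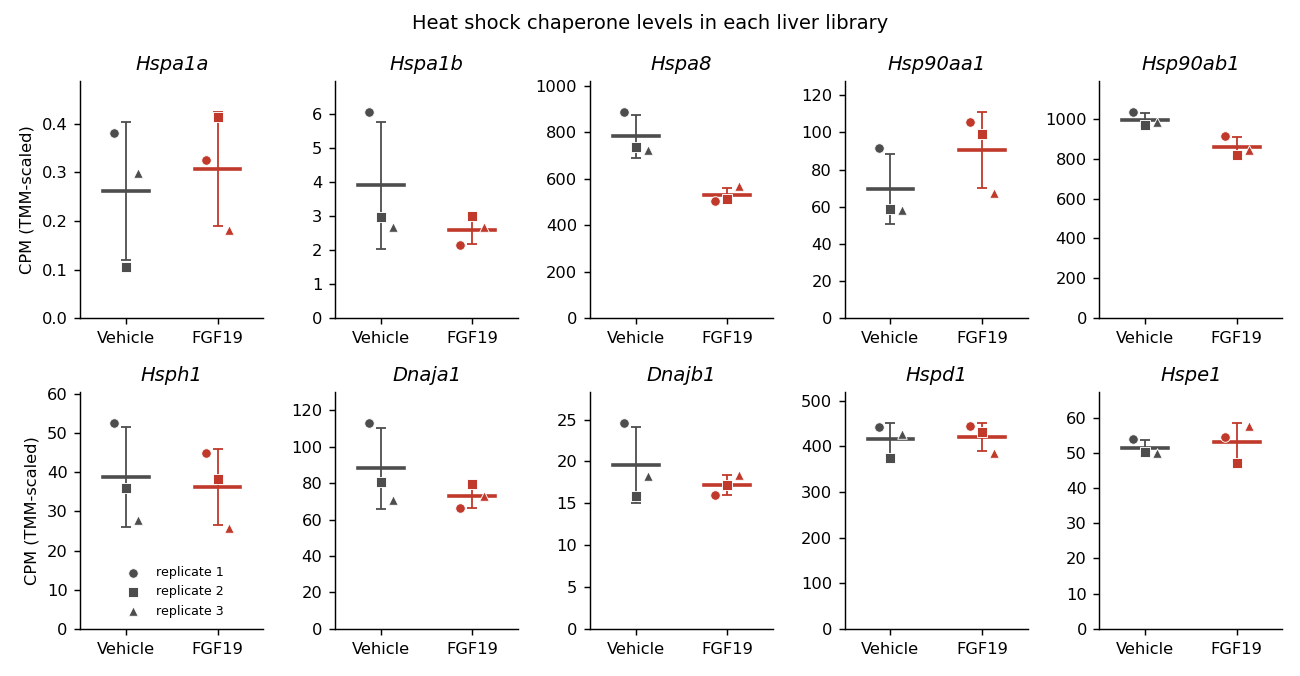
Level of each of the 10 chaperones in CPM after TMM scaling (vertical axis, from 0) in the 3 Vehicle (grey) and 3 FGF19 (red) libraries, where each point is a library, its shape the replicate number, the thick line the mean and the bar 1 SD. For Hspa8 the FGF19 points lie between 505 and 568 CPM, all below the Vehicle points, and in every panel the grey circle, Vehicle 1, is the highest of the Vehicle points.

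Among the HSP70 proteins, Hspa8 (chr9:40609356-40613282, plus strand) encodes HSC70, the form that cells make at all times and that also strips clathrin coats and serves chaperone-mediated autophagy. Its level was 888, 735 and 724 CPM in Vehicle 1, 2 and 3, and 505, 513 and 568 CPM in FGF19 1, 2 and 3. Every FGF19 library was below every Vehicle library, with Vehicle 1 standing above the other Vehicle libraries. The means were 783 ± 91.7 CPM (SD, n = 3) in Vehicle and 529 ± 34.0 CPM (SD, n = 3) in FGF19. The log2 fold change was -0.57 (SE 0.106, 95% interval -0.80 to -0.33), and the quasi-likelihood test of edgeR gave an adjusted p of 0.0136. It stayed past the threshold without any 1 of the Vehicle libraries, the smallest change being -0.46 without Vehicle 1. Without FGF19 1 or FGF19 2 the adjusted p in the same edgeR test was 0.0698 and 0.0679, at log2 fold changes of -0.53 and -0.54. Over all 14 alternatives the adjusted p ranged from 6.39e-05 to 0.0698. In those 2 fits the number of all genes called lower was 118 and 91, against 357 with all libraries.

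Hspa1a and Hspa1b encode the heat-inducible HSP70, which is scarce in unstressed tissue. Hspa1a had 8, 2 and 6 reads in Vehicle 1, 2 and 3, and 7, 9 and 4 reads in FGF19 1, 2 and 3. Levels of 0.106 to 0.414 CPM lay near the 0.131 to 0.158 CPM that a count of 0 allows (3 counts), and no difference was detectable at this depth. Hspa1b had 127, 56 and 54 reads in the Vehicle libraries, and 46, 65 and 59 in the FGF19 libraries. Vehicle 1, at 6.05 CPM, was at more than 2 times any other library, and the other 5 lay between 2.14 and 2.99 CPM. The log2 fold change of Hspa1b was -0.59 (SE 0.313, 95% interval -1.29 to 0.11, adjusted p = 0.302 in the edgeR test). It was -0.12 without Vehicle 1. With the reads of both genes added, the counts were 135, 58 and 60 in Vehicle and 53, 74 and 63 in FGF19, and the log2 fold change was -0.52 with an adjusted p of 0.353 in the edgeR test.

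Hsph1, or HSP110, is an HSP70-like protein that exchanges nucleotide on HSP70. Its level was 52.7, 35.9 and 27.8 CPM in Vehicle 1, 2 and 3, and 44.9, 38.2 and 25.7 CPM in FGF19 1, 2 and 3. The groups overlapped almost completely, and within each group the libraries spanned more than the means differed. The log2 fold change was -0.10 (SE 0.244, 95% interval -0.65 to 0.45, adjusted p = 0.856 in the edgeR test). Its sign turned without Vehicle 1, to 0.19, and without FGF19 3, to 0.10.

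Of the J-domain proteins, which bring clients to HSP70 and start its ATP hydrolysis, Dnaja1 was at 113, 80.5 and 70.8 CPM in Vehicle 1, 2 and 3. It was at 66.2, 79.5 and 73.0 CPM in the FGF19 libraries. The highest library was again Vehicle 1, and the others overlapped. Its log2 fold change was -0.27 (SE 0.161, 95% interval -0.64 to 0.09, adjusted p = 0.353 in the edgeR test), and -0.05 without Vehicle 1. Counts of Dnaja1 carry a limit, since 1577 bases of its exons are shared with Mir207 and Smu1 and strand was not used in counting. No exon base of the other 9 chaperones is shared with another gene.

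Dnajb1, or HSP40, is the heat-inducible J-domain partner of HSP70. Its level was 24.6, 15.9 and 18.3 CPM in Vehicle 1, 2 and 3, and 16.0, 17.2 and 18.4 CPM in FGF19 1, 2 and 3. Apart from Vehicle 1, all libraries lay between 15.9 and 18.4 CPM. The log2 fold change was -0.19 (SE 0.158, 95% interval -0.55 to 0.16, adjusted p = 0.526 in the edgeR test), and 0.01 without Vehicle 1.

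The cytosolic HSP90 proteins come from Hsp90aa1 (chr12:111929246-111934605, minus strand), the inducible form, and Hsp90ab1 (chr17:45704727-45710210, minus strand), the constitutive form. Hsp90ab1 was at 1034, 971 and 985 CPM in Vehicle 1, 2 and 3, and at 913, 817 and 842 CPM in FGF19 1, 2 and 3. All 3 FGF19 libraries were below all 3 Vehicle libraries. The log2 fold change was -0.22 (SE 0.0877, 95% interval -0.41 to -0.02), and it did not pass, with an unadjusted p of 0.0343 and an adjusted p of 0.177 in the edgeR test. Hsp90aa1 was at 91.4, 59.0 and 58.4 CPM in Vehicle 1, 2 and 3, and at 105.5, 99.0 and 67.2 CPM in FGF19 1, 2 and 3. Here the FGF19 mean was the higher, 90.6 ± 20.5 against 69.6 ± 18.9 CPM (SD, n = 3 each), but Vehicle 1 lay above FGF19 3. Its log2 fold change was 0.38 (SE 0.205, 95% interval -0.08 to 0.84, adjusted p = 0.313 in the edgeR test). Without Vehicle 1 the groups no longer overlapped, and the value was 0.62 with an adjusted p of 0.103 in the edgeR test. The log2 ratio of Hsp90aa1 to Hsp90ab1 within a library was 0.60 higher in FGF19, with overlap between the groups (exact permutation p = 0.2, two-sided).

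In mitochondria, Hspd1 encodes HSP60 and Hspe1 encodes HSP10. Hspd1 was at 442, 375 and 428 CPM in Vehicle 1, 2 and 3, and at 445, 430 and 385 CPM in FGF19 1, 2 and 3. Hspe1 was at 53.8, 50.2 and 49.8 CPM in the Vehicle libraries, and at 54.6, 47.1 and 57.7 CPM in the FGF19 libraries. For both genes the groups overlapped and the means nearly coincided. The log2 fold change of Hspd1 was 0.02 (SE 0.0990, 95% interval -0.20 to 0.24, adjusted p = 0.936 in the edgeR test). That of Hspe1 was 0.05 (SE 0.0976, 95% interval -0.17 to 0.27, adjusted p = 0.810). The intervals leave room for a change of up to about 0.27 on the log2 scale in either gene. The log2 ratio of Hspd1 to Hspe1, which share the promoter stretch shown, was 3.01 ± 0.103 in Vehicle and 2.99 ± 0.228 in FGF19 (SD, n = 3 each, exact permutation p = 0.8).

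Over the 9 chaperones tested, the count was 0 higher and 1 lower at an adjusted p under 0.05, and the same at an unadjusted p under 0.01. At an unadjusted p under 0.05 edgeR's quasi-likelihood test gave 0 higher and 2 lower, Hspa8 and Hsp90ab1, where 11.6% of all genes tested were higher and 11.3% lower. DESeq2, limma-voom and edgeR's likelihood ratio test each gave 0 higher and 1 lower at an adjusted p under 0.05. These shares rest on single genes, and beside the 2.84% of all genes called lower they do not set the chaperones apart. The median log2 fold change was -0.19, with 3 positive and 6 negative values, beside a median of -0.00076 over all genes tested. Without Vehicle 1, the median was 0.01, with 5 positive and 4 negative values, while with any other library left out it was between -0.24 and -0.18. The groups did not overlap for 2 of the 10, both lower, beside 13.8% of all genes tested in that direction and 14.5% in the other.

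In Vehicle 1 the chaperones stood higher than in the other Vehicle libraries. It was the highest Vehicle library for 10 of 10 genes, which was the case for 34.9% of all genes tested. It was also the highest of all 6 libraries for 6 of them (Hspa1b, Hspa8, Hsp90ab1, Hsph1, Dnaja1 and Dnajb1), against 17.4% of all genes tested. Against the mean of Vehicle 2 and Vehicle 3, the level in Vehicle 1 was 2.14-fold for Hspa1b, 1.65-fold for Hsph1, 1.56-fold for Hsp90aa1, 1.5-fold for Dnaja1 and 1.44-fold for Dnajb1. The constitutive and mitochondrial genes stood closer, with 1.22-fold for Hspa8, 1.10-fold for Hspd1, 1.08-fold for Hspe1 and 1.06-fold for Hsp90ab1, and the median of all genes tested was 0.997. The 9 values are of 1 mouse and are not replicates. This pattern was noticed in the data and was not tested.

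**Figure D2:**
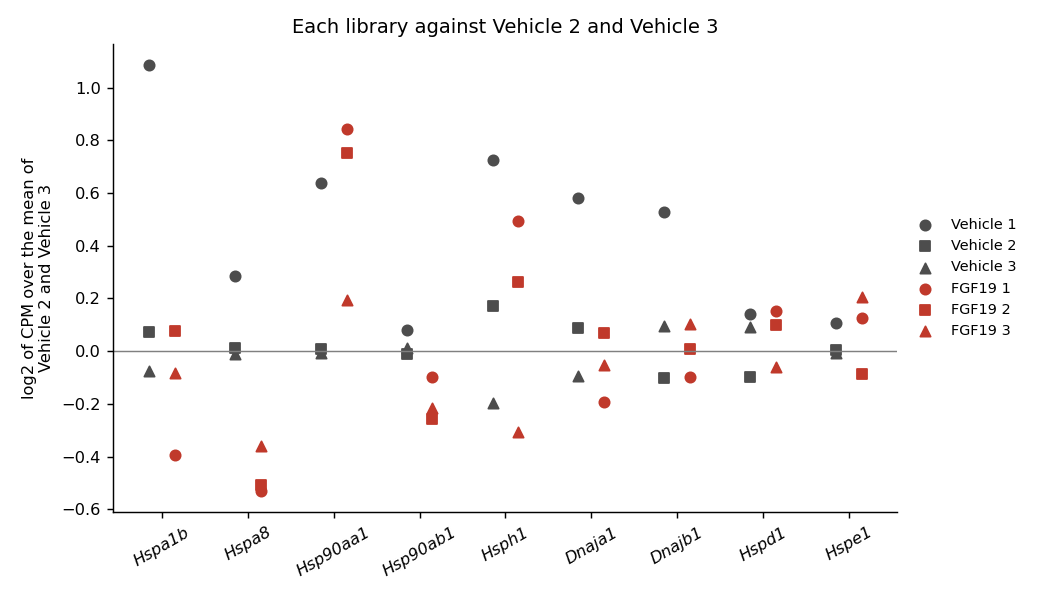
Log2 of the CPM of each library over the mean of Vehicle 2 and Vehicle 3 (vertical axis) for the 9 chaperones tested, with Vehicle in grey, FGF19 in red and the shape giving the replicate number. The grey circles, Vehicle 1, lie above 0 for all 9 genes, and the red points of Hspa8 and Hsp90ab1 all lie below 0.

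The same count was taken in the other lists of the pathway, beside the same 34.9% of all genes tested. Vehicle 1 was the highest for 14 of the 27 other partners of HSP70, with a median ratio to the mean of Vehicle 2 and Vehicle 3 of 1.06. For the HSP90 co-chaperones this was so in 9 of 18, with a median ratio of 1.09, and for the other mitochondrial chaperones and proteases in 9 of 16, with a median ratio of 1.02. It was so in 6 of 14 TRiC and prefoldin genes (median ratio 1.02), 3 of 4 small heat shock proteins (1.12), 2 of 6 ER relatives (1.03), 1 of 4 heat shock factors (1.03), 1 of 6 other HSF1 targets (0.852) and 0 of 2 cold-inducible genes (0.851). Single genes of these lists, named after their values were seen, stood further apart, in both directions. Bag3, a nucleotide exchange factor of HSP70, was at 49.4, 27.8 and 29.4 CPM in Vehicle 1, 2 and 3, and Dnajb4 at 44.1, 24.2 and 32.4 CPM. The co-chaperone Stip1, which links HSP70 to HSP90, was at 93.1, 66.2 and 65.6 CPM, and Chordc1 at 33.0, 14.8 and 21.2 CPM. Lowest in Vehicle 1 of the Vehicle libraries were, among others, Clpx of the mitochondrial list and Tomm34 of the HSP90 co-chaperones. Clpx was at 189, 321 and 231 CPM in Vehicle 1, 2 and 3, and Tomm34 at 10.4, 15.7 and 12.5 CPM. Whether the 10 chaperones differ from these lists in Vehicle 1 was not tested. The 13 immediate early genes tested, which react within minutes to many stimuli, had a median ratio of 0.688. The summed level of all 14 genes of that list was lowest in Vehicle 1, at 370 CPM against 402 to 728 CPM in the other libraries. Their part in the Vehicle 1 values was not tested.

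**Figure D3:**
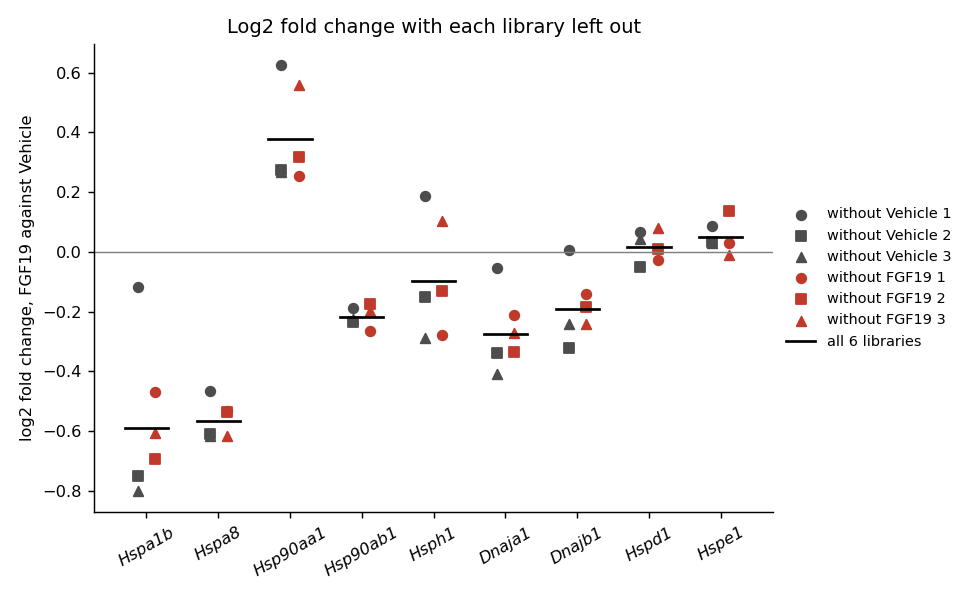
Log2 fold change of FGF19 against Vehicle (vertical axis) for the 9 chaperones tested, with all 6 libraries (black line) and after leaving out each library (points, colour for the group and shape for the replicate left out). Without Vehicle 1 (grey circles) Hspa1b, Dnaja1 and Dnajb1 move to -0.12, -0.05 and 0.01, while Hspa8 stays between -0.62 and -0.46 in all 6 fits.

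Other genes of the same pathway were taken from fixed lists. Of the heat shock factors and their binding protein, 4 were tested and 0 passed in edgeR's quasi-likelihood test, with a median log2 fold change of -0.31. Hsf1 itself was at 15.7 ± 1.41 CPM in Vehicle and 15.2 ± 1.39 CPM in FGF19 (SD, n = 3 each), a log2 fold change of -0.04 with an adjusted p of 0.874 in the edgeR test. All 4 had negative values, and Hsf2, named after its value was seen, was at -0.49 with an adjusted p of 0.0879 in the edgeR test. At an unadjusted p under 0.05, 0 were higher and 2 lower. At an adjusted p under 0.05, edgeR's likelihood ratio test called 1 of the 4 lower, and DESeq2 and limma-voom called 0.

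Of the 27 HSP70 partners 0 passed in edgeR's quasi-likelihood test, with a median of 0.01, and 2 were higher and 2 lower at an unadjusted p under 0.05. Of the 18 HSP90 co-chaperones 0 passed, with a median of -0.06, and 1 was higher and 1 lower at that unadjusted p. Of the 16 mitochondrial chaperones and proteases 0 passed, with a median of -0.03, and 2 were higher and 3 lower at that unadjusted p. For these 3 lists DESeq2, limma-voom and the likelihood ratio test also called 0. Of the 14 subunits of the TRiC chaperonin and prefoldin, which fold actin and tubulin, 0 passed, with a median of -0.02, and DESeq2 and the likelihood ratio test called 1 higher. Of 7 small heat shock proteins 4 were tested and 0 passed, with a median of 0.22, and DESeq2 and the likelihood ratio test called 1 higher. At an unadjusted p under 0.05, 1 of the TRiC and prefoldin genes was higher, Cct3 at 0.31, and 1 lower, Cct4 at -0.27, both named after their values were seen. At the same p 1 small heat shock protein was higher and 0 were lower, and limma-voom called 0 in both lists.

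Among other known HSF1 targets, Hmox1 rose. Hmox1, a heme oxygenase also driven by other stress factors, was at 13.2, 15.4 and 18.9 CPM in Vehicle 1, 2 and 3, and at 24.3, 28.7 and 24.5 CPM in FGF19 1, 2 and 3. It rose by 0.71 on the log2 scale, with an adjusted p of 0.0166 in the edgeR test. Every FGF19 library was above every Vehicle library. The cold-inducible RNA-binding genes, which run opposite to heat shock genes when body temperature changes, did not pass. Cirbp was at 0.20 on the log2 scale (adjusted p = 0.571) and Rbm3 at 0.15 (adjusted p = 0.559 in the edgeR test).

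The ER relatives of the chaperones behaved otherwise. Of 6 tested, 5 rose in edgeR's quasi-likelihood test, against 4.56% of all genes tested, with a median log2 fold change of 1.23, and the count was also 5 without Vehicle 1. Hspa5, the HSP70 of the ER, was at 682, 734 and 580 CPM in Vehicle 1, 2 and 3, and at 2352, 2142 and 1410 CPM in FGF19 1, 2 and 3. Hsp90b1, the HSP90 of the ER, was at 790, 840 and 740 CPM in the Vehicle libraries and at 2324, 2077 and 1527 CPM in the FGF19 libraries. In both genes the lowest FGF19 library was FGF19 3, and it was still far above every Vehicle library. Log2 fold changes were 1.56 for Hspa5 (adjusted p = 0.00125), 1.32 for Hsp90b1 (adjusted p = 0.00106), 1.75 for Hyou1 (adjusted p = 0.00157) and 1.14 for Dnajb11 (adjusted p = 0.000216). The fifth, Dnajc3, was at 0.89 (adjusted p = 0.00945), and Dnajb9, which did not pass, was at 0.69 (adjusted p = 0.0694 in the edgeR test).

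**Figure D4:**
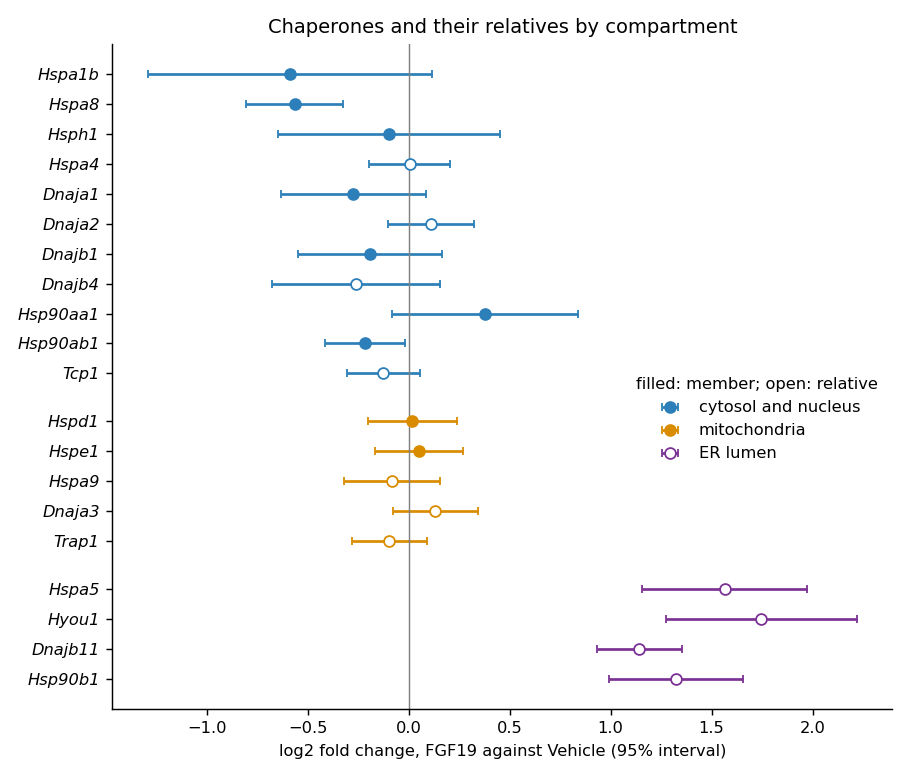
Log2 fold change of FGF19 against Vehicle with its 95% interval (horizontal axis) for the 9 chaperones tested (filled) and their paralogs (open), by the compartment of the protein. The 4 ER genes shown lie between 1.14 and 1.75, and all cytosolic and mitochondrial genes lie between -0.59 and 0.38.

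To compare compartments without any scaling between libraries, the log2 ratio of a chaperone to a paralog was taken within each library, with a pseudocount of 1 count, and the groups compared by a two-sided exact permutation test over 16 pairs. With 3 against 3 libraries this test cannot go below 0.1, and after Benjamini-Hochberg adjustment over the pairs no value was below 0.178. The log2 ratio of Hspa8 to Hspa5 was 0.38, 0.00 and 0.32 in Vehicle 1, 2 and 3, and -2.22, -2.06 and -1.31 in FGF19 1, 2 and 3. Hspa8 and its ER relative were thus at similar read counts in Vehicle livers, and Hspa8 was the lower in all 3 FGF19 livers. The difference between the groups was -2.10 for Hspa8 to Hspa5, -1.52 for Hsp90ab1 to Hsp90b1, -1.80 for Hsph1 to Hyou1 and -1.31 for Dnajb1 to Dnajb11. In each of these 4 pairs the groups did not overlap (exact permutation p = 0.1, the smallest possible).

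Within the cytosol and mitochondria the ratios moved less. The groups did not overlap for Hspa8 to the mitochondrial HSP70 gene Hspa9, with a difference of -0.48. Nor did they overlap for Dnaja1 to Dnaja2, at -0.36, for Dnaja1 to the mitochondrial Dnaja3, at -0.38, or for Hsp90ab1 to the mitochondrial HSP90 gene Trap1, at -0.12. For Hspd1 to Hspa9 the ratio was 0.10 higher in FGF19 without overlap. All 5 had an exact permutation p of 0.1, the smallest possible. Without Vehicle 1 the difference was -0.24 for Dnaja1 to Dnaja2 and -0.20 for Dnaja1 to Dnaja3, and without FGF19 2 it was -0.07 for Hsp90ab1 to Trap1. The groups overlapped for the other 7 pairs, which were Hspa1a to Hspa1b (0.73), Hspa1b to Hspa8 (0.07), Hsp90aa1 to Hsp90ab1 (0.60), Hsph1 to Hspa4 (-0.09), Dnajb1 to Dnajb4 (0.05), Hspd1 to Hspe1 (-0.03) and Hspd1 to the TRiC subunit gene Tcp1 (0.14). Their exact permutation p was between 0.2 and 0.8. Without Vehicle 2 the difference was 0.45 for Hspa1a to Hspa1b, and without FGF19 1 it was 0.08 for Hspd1 to Tcp1.

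Reads with more than 1 place in the genome were dropped by the authors' counting, so exon sequence that is not unique can lose reads. The libraries are paired-end, and a read in copied sequence can still be placed through a mate in unique sequence. How many were lost was not measured. Of all 100-base windows along the exons, the length of a read, 73.1% had an exact copy elsewhere in mm9 for Hspa8, 69.6% for Hsp90aa1, 51.7% for Hspa1a, 49.8% for Hspa1b, 35.6% for Hspd1, 20.6% for Hspe1 and 17.4% for Dnaja1. Hsp90ab1, Hsph1 and Dnajb1 had none. For Hspa8 the copies lay mostly on chromosomes 5 and 10, with 68.1% and 34.5% of its windows, and for Hsp90aa1 on chromosomes 11 and 3, with 60.2% and 27.6%. For Hspa1b all copied windows were on chromosome 17, where Hspa1a lies. The exons of that pair were identical over 87.3% of their alignment, with gaps counted as differences. The levels given for these genes may therefore be too low, and the order by TPM is uncertain to that extent. For Hspa8, 540 of 2005 windows had no copy, and its fold change rests on the reads that were placed, between 10865 and 18642 per library. Reads from a copy with a few differing bases could still be placed in either locus, and the part of that in the Hspa8 value was not tested.

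**Figure D5:**
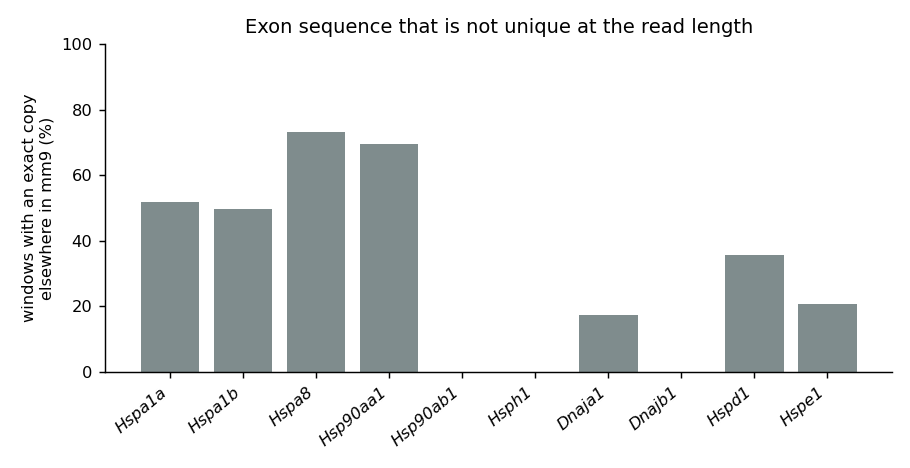
Share of 100-base windows along the exons of each chaperone that have an exact copy elsewhere in the mm9 genome (vertical axis, percent), with 1 bar per gene. The bars reach 73.1% for Hspa8 and 69.6% for Hsp90aa1 and are at 0 for Hsp90ab1, Hsph1 and Dnajb1.

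Markers of other cells in the tissue were read beside the Hspa8 result. The 8 hepatocyte markers were all tested and 0 passed, with a summed level of 101030 to 105680 CPM in Vehicle and 94751 to 104680 CPM in FGF19. Of 8 neutrophil and monocyte markers, 7 were in the files and 3 were tested, of which S100a9 rose by 2.16 on the log2 scale. Their summed level was 3.53 to 4.57 CPM in Vehicle and 7.70 to 13.1 CPM in FGF19, and none of the 7 was at 0 in all libraries. Of 10 Kupffer cell and macrophage markers, Marco and Cd68 rose, by 2.29 and 0.66 on the log2 scale, while the summed level overlapped, at 268 to 325 CPM in Vehicle and 265 to 328 CPM in FGF19. Of the 7 endothelial cell markers tested, Cdh5 rose by 0.43, while Clec4g, which did not pass, was at -0.38. In that list 3 log2 fold changes were positive and 4 negative. Of the 8 stellate cell markers tested, Colec11 was lower, at -0.75, while Lrat, which did not pass, was at 0.33. In that list 2 were positive and 6 negative. Clec4g and Lrat were named after their values were seen. The summed level of each of these lists overlapped between the groups. Of 15 circadian clock genes 4 fell, led by Dbp at -1.59, Per3 at -1.38 and Tef at -0.84. Of the immediate early genes Btg2 rose by 1.47 and Fosl2 by 0.67. The part of cell makeup and of clock phase in the chaperone values was not tested.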

How the data were processed

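RNA-seq of 6 mouse livers was analysed, 3 per group, with groups and replicate numbers from the sample labels. The authors aligned reads with STAR (2.5.3a in the submitters' processing notes, while the study's text names other versions) after Trimmomatic 0.36, and counted them on mm9 exons with featureCounts 1.5.2. The deposited values are raw read counts per gene, per the file headers. Strand was not used, mates were counted separately, and reads that align to several places were left out. The authors' own comparison table, which holds fold changes and p-values, was not used.

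Tests were run on the counts in edgeR 4.0.16 under R 4.3.3 (filterByExpr defaults, TMM, quasi-likelihood test, no covariates, common dispersion 0.0163). The study used edgeR with p under 0.01 and leaves the type of test unnamed. The quasi-likelihood test and an adjusted p under 0.05 were therefore choices. Chi-square over its degrees of freedom was 8.68 to 41.8 between libraries of a group, so all 6 counted as separate samples. Alternatives were DESeq2 1.42.0, limma-voom (limma 3.58.1), the likelihood ratio test, other scalings, filters and thresholds, a replicate block, summed Hspa1a and Hspa1b counts, another pseudocount and each library left out. The count tests were also run on simulated counts with the same dispersion for every gene and changes larger than that of Hspa8. Their power for a change of that size was not measured. The chaperones, lists and alternatives were chosen with earlier results of these data known. All 10 chaperones are named, with list genes that pass the threshold (at most 4 per direction, or 3 for cell type, clock and immediate early lists), the paired paralogs, Hsf1 and the cold-inducible genes. A few other list genes were named after their values were seen. The values of 1 gene of the list of other HSF1 targets are not reported here.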

Additional observations from a re-analysis of the deposited data

How the results depend on the processing

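Of the 9 chaperones tested, the count called higher was 0 under every alternative tried. The count called lower was 0 at an adjusted p under 0.01 and ranged from 0 to 1 with each library left out, being 0 without FGF19 1 and without FGF19 2, where the other fits gave 1. Hspa8 had an adjusted p of 0.0698 and 0.0679 in these edgeR fits. Over all genes tested, the likelihood ratio test called 780 higher and 579 lower against 573 and 357, an adjusted p under 0.01 gave 228 and 80, an unadjusted p under 0.01 gave 779 and 626, and leave-one-out fits gave 236 to 1015 higher and 91 to 926 lower. Signs that turned were those of genes and ratios that had not passed. With single libraries left out, the log2 fold change ranged from -0.286 (without Vehicle 3) to 0.189 (without Vehicle 1) for Hsph1, also turning without FGF19 3, at 0.103. It ranged from -0.322 to 0.00715 (without Vehicle 1) for Dnajb1, from -0.0505 (without Vehicle 2) to 0.0818 for Hspd1, also turning without FGF19 1, at -0.0256, and from -0.00859 (without FGF19 3) to 0.137 for Hspe1. The log2 ratio difference ranged from -0.0977 (without Vehicle 3) to 0.335 for Hspa1b to Hspa8, also turning without Vehicle 2 and FGF19 2, from -0.305 to 0.120 (without FGF19 3) for Hsph1 to Hspa4, also turning without Vehicle 1, from -0.0302 (without FGF19 3) to 0.127 for Dnajb1 to Dnajb4, and from -0.129 to 0.0966 (without FGF19 3) for Hspd1 to Hspe1, also turning without Vehicle 3. The causes were not tested. The median over the chaperones was 0.00715 without Vehicle 1 and down to -0.24 with other libraries left out, against -0.19. Over all results recomputed, 260 alternative values kept direction and side of the threshold, stayed within the replicate spread or were counts close to the first. As such a close count, 3 against 2 chaperones without overlap was taken as kept. Of the other values 15 turned sign, 3 were counts that moved and 2 no longer passed. Without the filter on low counts, Hspa1a was at 0.20 with an adjusted p of 0.895 in the edgeR test.

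Same-numbered libraries did not deviate together (correlations across genes of -0.03, -0.18 and -0.18). With 3 libraries a group the deviations constrain each other, so this cannot exclude that the numbers pair the mice. With the replicate number as a block, 0 chaperones were called higher and 1 lower, Hspa8 was at -0.56 with an adjusted p of 0.0421 in the edgeR test, and over all genes 370 were higher and 164 lower. With that block the SE fell from 0.244 to 0.117 for Hsph1 and from 0.205 to 0.135 for Hsp90aa1. It rose for the other chaperones tested. Neither Hsph1 nor Hsp90aa1 passed, with adjusted p of 0.769 and 0.173 in that edgeR test. No sample correlated best with its own number.

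The medians, and the counts without Vehicle 1 of ER relatives called and of chaperones without overlap (3 against 2), were added after seeing the data. With 3 mice a group, changes within an interval that includes 0 cannot be told from none, and Hspa1a was too low to compare.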
